A study of Homo sapiens with 12 samples.

Results

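The comparison of 30 nM sodium selenite with no added selenite in control cells rests on 6 ribosome profiling libraries of A375, an established human melanoma line: 3 of control cells given selenite and 3 of control cells given none. The labels call the control genotype WT. These 6 libraries and their groups were taken from the labels, out of 12 libraries in all, and 10467 of the 13074 genes in the count table passed the filter on low counts. The other 6 libraries come from 1 FTSJ1 knockout line (labelled KO1, with the genotype spelled FTS1 KO), 3 with 30 nM selenite and 3 without. They share in the filter on low counts, the scaling between libraries and the estimate of the spread. Otherwise they enter here only where the selenite response of control cells was set against theirs. FTSJ1 is a methyltransferase of tRNA, and the study asked how selenoproteins are translated once the selenocysteine tRNA lacks its wobble methylation. No treatment time is given in the labels, nor whether replicates were separate cultures.

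Selenoproteins contain selenocysteine, a selenium analogue of cysteine that is inserted at UGA codons, which elsewhere end translation. Recoding needs a dedicated tRNA, an RNA hairpin in the mRNA called the SECIS element, and a binding protein and elongation factor that recognise them. Selenite is reduced in cells to selenide and used to make selenocysteine on its tRNA. When selenium is scarce, some selenoproteins are kept and others are lost, an order known as the selenoprotein hierarchy, and some of their mRNAs are then degraded as if the UGA were a premature stop. Footprints are the stretches of mRNA that ribosomes protect from nuclease. They were counted here over whole genes, so a change in mRNA level, a change in initiation and ribosomes passing beyond the UGA codon were not separated.

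The 3 selenite libraries held 951567 to 1321859 counts and the 3 libraries without selenite 1378961 to 1497309. Replicates of a group differed by more than sampling noise, with a chi-square per degree of freedom of 3.13 to 4.31 between pairs of selenite libraries and 1.68 to 2.42 between pairs without selenite. The first principal component of the 6 libraries, with 29.9% of the variance, did not separate the groups: the selenite libraries lay at -22.8, 22.6 and 14.4 and those without at -11.1, -13.5 and 10.5. Melanoma lineage genes summed to 1617 to 1713 CPM (footprint counts scaled to a common library size) with selenite and 1553 to 1662 CPM without. Of the 14 lineage markers 10 were in the table, with SOX10 and ERBB3 at the highest levels. TYR, TYRP1, PMEL and MLANA were not in it, and DCT (4.53 CPM with selenite, 2.55 CPM without) was not tested. Of 18 markers of other cell types 7 were in the table, with sums of 85.5 to 89.6 CPM with selenite and 89.5 to 99.7 CPM without.

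With selenite, footprints in control cells rose on 2 genes, both of which encode selenoproteins. Of 10467 genes, 2 rose and none fell by edgeR's quasi-likelihood test at a Benjamini-Hochberg adjusted p under 0.05, which is 0.0191% of the genes tested for rises and 0% for falls. The genes were TXNRD1 and SELENOW, which ranked 1 and 2 of all genes by p. DESeq2 also called 2 higher and 0 lower, and its pair was TXNRD1 and SELENOH. At an unadjusted p under 0.05 edgeR gave 139 genes higher and 145 lower. In these bulk samples, a change in the share of cells that translate a gene and a change per cell cannot be told apart. When the 6 control libraries were fitted alone, 4 genes passed, all higher and all selenoproteins: GPX1, TXNRD1, SELENOH and SELENOW.

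**Figure D1:**
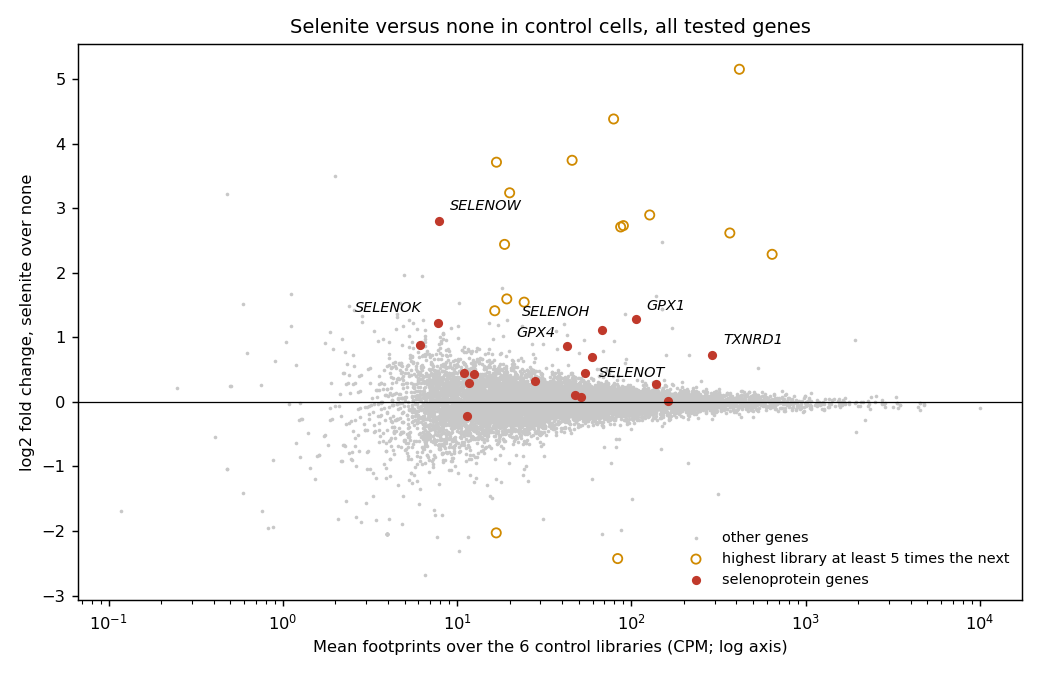
Log2 fold change of selenite over no selenite in control cells (vertical) against mean footprint level over the 6 control libraries in CPM (horizontal, log axis), with 1 point per tested gene. Filled red points are the 18 tested selenoprotein genes, 17 of which lie above 0, and open circles are the 16 genes whose highest library held at least 5 times the next, 13 of them through selenite replicate 2.

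The selenoprotein genes were read as a set of 25, of which 18 were tested. SELENOP, the plasma selenium carrier, was in the table with 0 or 1 count in each library and was not tested, and 6 others were not analysed here. Of the 18 tested genes 17 had a positive log2 fold change, against 49% of all genes tested, and their median was 0.45, against -0.0043 over all genes. In 9 of the 18 every selenite library lay above every library without selenite, against 4.07% of all genes, and none lay wholly below, against 4.47%. At an unadjusted p under 0.05, 9 were higher, against 1.33% of all genes, and 0 lower, against 1.39% (2.71% of all genes in either direction). Of the 25 genes with the smallest p in the comparison 6 were selenoprotein genes. SELENOW, SELENOK and GPX3 passed the filter on low counts through selenite libraries alone, so their entry rested on their levels with selenite. All of them are among the 17, and SELENOW and SELENOK are among the 9 of both counts. The list was also chosen with earlier results of these data known, so these counts are a description. Some of these genes have near-identical processed pseudogenes, and how reads shared with them were counted is not given in the sources used here.

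**Figure D2:**
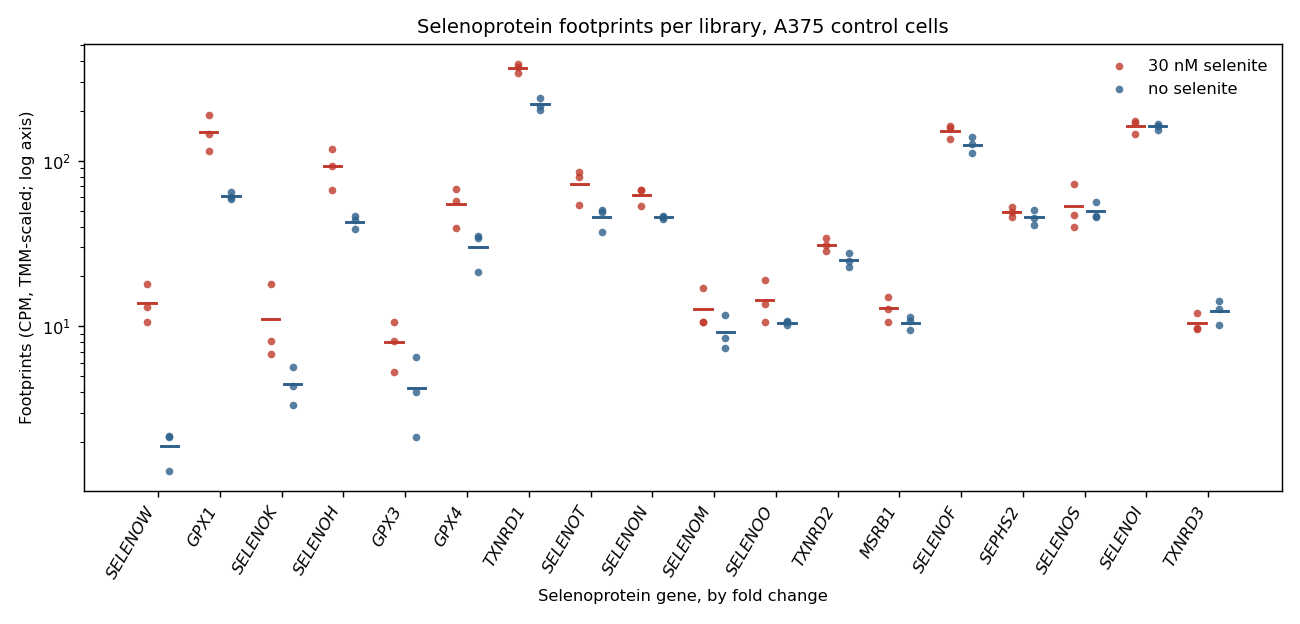
Footprint level in CPM (log axis) of each tested selenoprotein gene in every control library, with selenite (red) left of no selenite (blue). Points are libraries and bars are means of 3, and the groups do not overlap for SELENOW, GPX1, SELENOK, SELENOH, GPX4, TXNRD1, SELENOT, SELENON and TXNRD2.

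TXNRD1 encodes cytosolic thioredoxin reductase, which uses NADPH to keep thioredoxin reduced and carries its selenocysteine next to the C-terminus. The gene, on chromosome 12 at 104215779 to 104350307 (GRCh38), had 370.1, 383 and 337 CPM in the selenite libraries, against 215, 203 and 241 CPM without selenite. All 3 selenite libraries were above all 3 without. The means were 364 ± 23.5 CPM with selenite and 219 ± 19.7 CPM without (SD, n = 3 each), a 1.65-fold rise (log2 fold change 0.73 ± 0.11 SE, edgeR quasi-likelihood adjusted p = 6.1e-04). It passed under each of the 19 other settings tried, with log2 fold changes of 0.64 to 0.80 and adjusted p of 6.0e-06 to 0.035.

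SELENOW encodes a small selenoprotein with a thioredoxin-like fold that is known to be among the first lost when selenium is short. Its gene, on chromosome 19 at 47778703 to 47784682, had 13.1, 18.04 and 10.6 CPM with selenite, against 1.33, 2.18 and 2.13 CPM without. Behind these levels stood 16, 17 and 14 counts with selenite and 2, 3 and 3 counts without, and the limit that 3 counts set in the libraries without selenite was 2 to 2.18 CPM. The groups were far apart but the level without selenite was at the edge of what could be counted. The ratio of counts per depth was 7.21 (exact Clopper-Pearson bounds at the 95% level, from counting error alone, 3.38 and 17.7). No library without selenite reached 10 counts, so SELENOW, like SELENOK and GPX3, passed the filter on low counts through selenite libraries alone. The fitted rise of SELENOW was 6.97-fold (log2 fold change 2.80 ± 0.48 SE, edgeR adjusted p = 0.0055). With no such filter its edgeR adjusted p was 0.0021. The call was lost in 5 of the 18 settings that tested the gene, with adjusted p = 0.091 by DESeq2, 0.051 by limma-voom, 0.17 with the control libraries thinned to the smallest total, 0.14 without selenite replicate 2 and 0.16 without replicate 1 of the cells given none. The log2 fold change in these 5 was 2.42 to 2.88.

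The next genes belong to the glutathione peroxidases, which reduce peroxides at the expense of glutathione. GPX1, the abundant cytosolic enzyme and a textbook example of a selenium-sensitive mRNA, had 115, 190.0 and 146 CPM with selenite, against 64.7, 58.8 and 60.3 CPM without. The 3 libraries without selenite lay close together and each selenite library was above them. The ratio was 2.43-fold (log2 fold change 1.28 ± 0.29), and it did not pass in the fit of all 12 libraries (edgeR adjusted p = 1.0). It passed in 3 of the 19 other settings. These were the 6 control libraries alone (log2 fold change 1.28, adjusted p = 5.82e-05), the fit without both shallow knockout libraries and a block for replicate number within genotype. By DESeq2 its adjusted p was 0.057. GPX4, which reduces lipid hydroperoxides in membranes and restrains ferroptosis, had 39.2, 57.3 and 68.0 CPM with selenite, against 21.3, 34.9 and 34.0 CPM without. Its log2 fold change was 0.87 ± 0.28, which did not pass (adjusted p = 1.0), and the groups did not overlap. GPX3, the secreted enzyme, had 8.17, 10.6 and 5.29 CPM with selenite, against 4, 6.54 and 2.13 CPM without, and these groups overlapped.

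SELENOH, a nuclear selenoprotein that responds strongly to selenium supply, had 67.0, 92.3 and 118 CPM with selenite, against 38.7, 43.6 and 46.1 CPM without. No selenite library fell into the range of the others. The log2 fold change of 1.11 ± 0.25 did not pass in the fit of all 12 libraries (edgeR adjusted p = 1.0). It passed in 4 of the 19 other settings. These were the 6 control libraries alone (1.12, adjusted p = 0.00392), DESeq2 (1.12, adjusted p = 0.025), the fit without selenite replicate 1 (1.31, adjusted p = 0.011) and a block for replicate number within genotype.

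**Figure D3:**
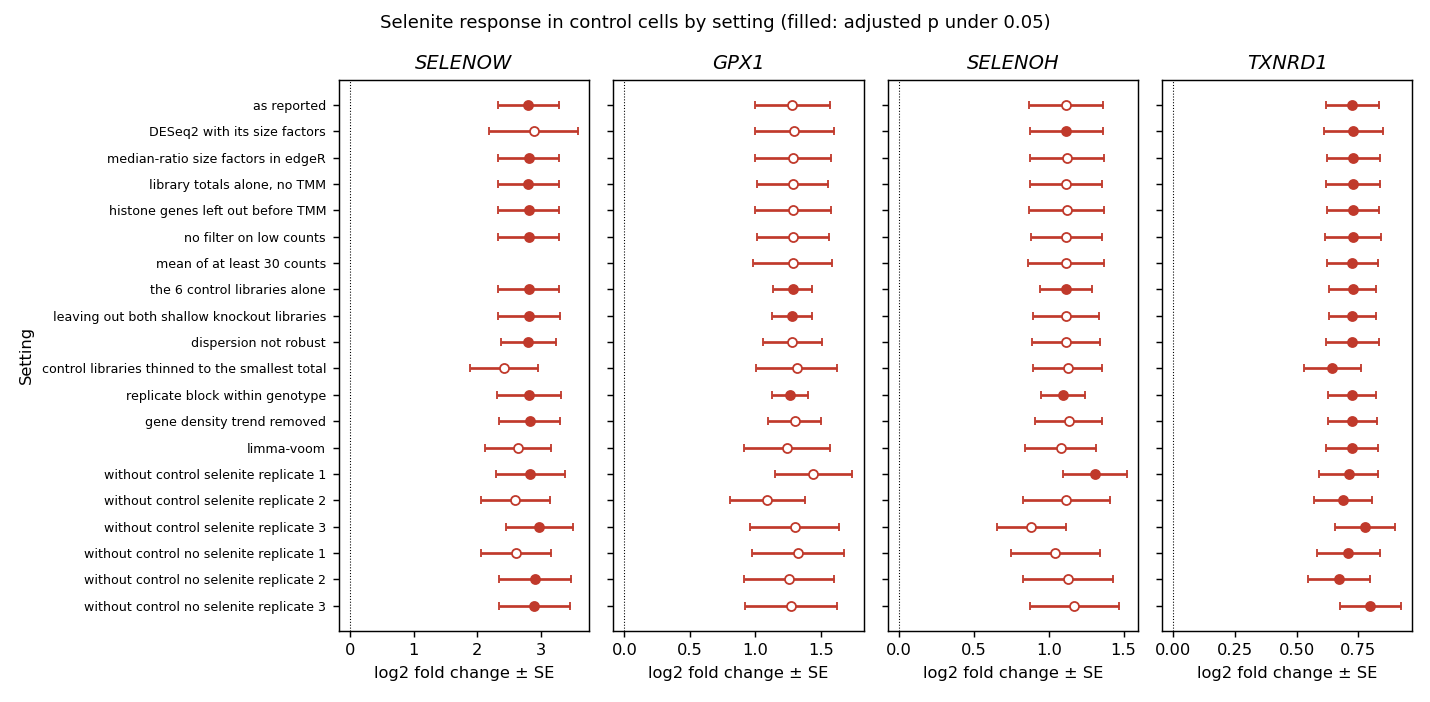
Log2 fold change ± SE of SELENOW, GPX1, SELENOH and TXNRD1 for selenite over none in control cells, with 1 row per setting and filled points where the adjusted p was under 0.05. TXNRD1 is filled in every row, and the points of the other 3 genes stay right of 0 whether filled or open.

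Several selenoproteins reside in the endoplasmic reticulum, where they take part in folding and degradation of proteins and in calcium handling. SELENOT, a thioredoxin-like membrane protein, had 85.0, 54.1 and 79.3 CPM with selenite, against 37.3, 50.1 and 48.9 CPM without (log2 fold change 0.70 ± 0.22). SELENON, mutated in a congenital myopathy, had 67.0, 66.9 and 53.6 CPM with selenite, against 44.7, 45.7 and 46.1 CPM without (0.45 ± 0.18). Neither passed the adjusted test, although neither pair of groups overlapped. SELENOK, a partner of the degradation machinery, had 8.17, 18.04 and 6.79 CPM with selenite, against 3.33, 4.36 and 5.68 CPM without, and its log2 fold change was 1.23 ± 0.52 with all libraries and 0.74 without selenite replicate 2. SELENOF, a partner of a glycoprotein folding sensor, had a log2 fold change of 0.28 ± 0.13, with 1 selenite library inside the other group's range. SELENOM was at 0.44 ± 0.36 and overlapped. SELENOS, which recruits the degradation complex, was at 0.073 ± 0.19 with a 95% interval of -0.30 to 0.45.

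The remaining selenoprotein genes had log2 fold changes of -0.22 to 0.43, and none passed. TXNRD2, the mitochondrial thioredoxin reductase, had 28.6, 30.8 and 34.0 CPM with selenite, against 22.7, 24.7 and 27.7 CPM without, groups that did not overlap although the log2 fold change was 0.32 ± 0.22. SELENOO, a mitochondrial AMPylating enzyme, was at 0.43 ± 0.34 and MSRB1, a methionine sulfoxide reductase, at 0.29 ± 0.30. SEPHS2, which makes the selenium donor for selenocysteine synthesis and is itself a selenoprotein, was at 0.11 ± 0.18. SELENOI, an ethanolamine phosphotransferase, was at 0.015 ± 0.12 with a 95% interval of -0.22 to 0.25, so a change of the size measured for TXNRD1 lay outside its interval. TXNRD3, the testis-type reductase, was the single member below 0, at -0.22 ± 0.32.

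Within the family the genes classed as stress-related, those known to be lost first in selenium shortage, had the higher median. It was 1.00 over 6 tested genes, with 1 called and 3 of 6 not overlapping between the groups, whereas the 9 tested housekeeping genes had a median of 0.45, with 1 called and 6 of 9 not overlapping. Over all genes 0.0191% were called higher and 4.07% were higher without overlap. SELENOW, the 1 stress-related gene called, and GPX3 passed the filter on low counts through selenite libraries alone. So did SELENOK of the housekeeping genes. Entry of these genes rested on their levels with selenite, so the medians and counts of the classes are a description. The difference between the classes was not tested. Summed over the 18 genes, selenoprotein footprints were 1265, 1404 and 1314 CPM with selenite, against 897, 895 and 921 CPM without, a ratio of means of 1.47. Without TXNRD1 the sums averaged 964 ± 63.7 CPM with selenite and 685 ± 6.48 CPM without (SD, n = 3 each), a ratio of 1.41.

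Outside the selenoproteins no gene passed, and those with the smallest p at a mean of at least 10 CPM were as follows. Among genes lower with selenite, DNAAF5, an assembly factor of axonemal dyneins, had 60.5, 70.0 and 58.1 CPM with selenite, against 112, 77.0 and 114 CPM without (log2 fold change -0.69 ± 0.16, edgeR adjusted p = 0.33). It passed in 2 of the 19 other settings, without replicate 2 of the cells given none (-0.85, adjusted p = 0.035) and with the replicate block. AGPAT2, an enzyme of phospholipid synthesis, was at -1.04 ± 0.27, DVL1, a mediator of Wnt signalling, at -0.83 ± 0.23, and TGIF1, a homeobox repressor, at -0.69 ± 0.22. CALR, the endoplasmic reticulum chaperone calreticulin, had 2042, 2047 and 1863 CPM with selenite, against 2565, 2377 and 2267 CPM without, a small difference of -0.28 ± 0.08. Among genes higher with selenite, EEIG2 was at 1.23 ± 0.34 and FNBP1L, a regulator of actin at membranes, at 0.69 ± 0.22. In each of these 7 genes the groups did not overlap, and AGPAT2, DVL1, TGIF1, CALR, EEIG2 and FNBP1L all had an adjusted p of 1.0. Below that level TMEM158, at a mean of 1.99 CPM, ranked 4 by p among all genes (adjusted p = 0.48), and it is named after its values were seen.

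The largest fold changes of the comparison came from single libraries. Of 9009 genes with a mean of at least 10 CPM, 33 were more than 2-fold higher with selenite, and in 30 of these the groups overlapped. Selenite replicate 2 was the highest library in 20 of the 33. GALNT13, a glycosyltransferase gene, had 18.8, 2395 and 18.9 CPM with selenite, against 22.7, 26.1 and 18.4 CPM without. LOXL2, a lysyl oxidase of the matrix, had 232, 2766 and 206 CPM with selenite, against 253, 228 and 169 CPM without. In both, replicate 2 alone stood out, and the other 2 selenite libraries lay at the level of the cells without selenite. A gene whose highest library held at least 5 times the next was found 16 times, 13 times in selenite replicate 2, 1 time in selenite replicate 3 and 2 times in replicate 2 of the cells given none. These genes were chosen after their values were seen, and none passed the adjusted test in the fit as reported. Of the 33, the 3 whose groups did not overlap were GPX1, SELENOH and EEIG2. SELENOW, at a mean of 7.89 CPM, lies outside this count.

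Abundant genes differed little between the groups. Of the 2256 genes with a mean of at least 100 CPM, 99.2% were within 0.5 of 0 on the log2 scale, and for 98.8% the 95% interval of the log2 fold change lay inside -1 to 1. Over 24 gene lists without a selenium theme, medians ran from -0.094 to 0.13, and the single call among their members was TXNRD1 on the list of NRF2 targets.

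**Figure D4:**
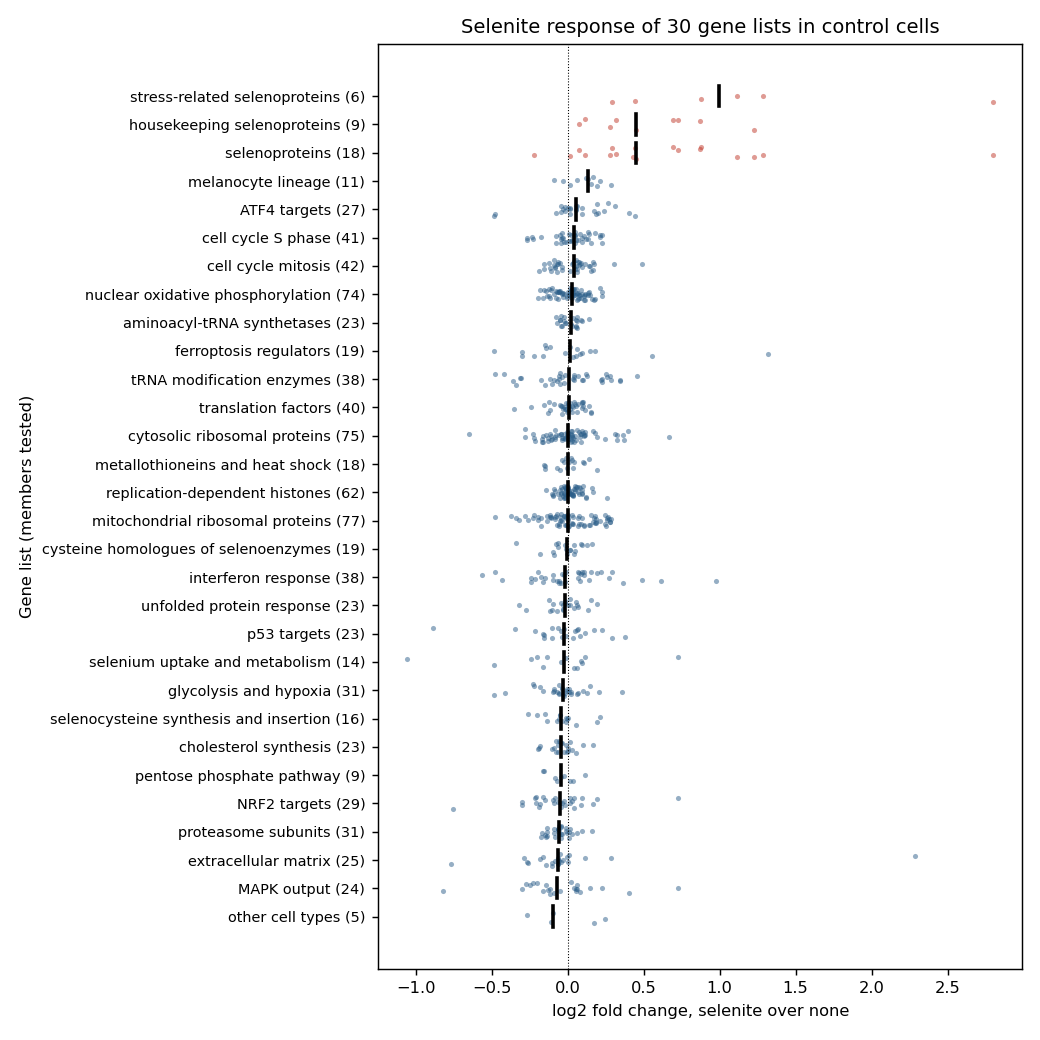
Log2 fold change of selenite over none in control cells for the tested members of 30 gene lists, with 1 point per gene and a black bar at each list's median. The 3 selenoprotein lists (red) have medians of 0.45 to 1.00, and the other lists centre between -0.094 and 0.13.

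The factors that make and insert selenocysteine gave no calls. Of 16 tested genes of this machinery, among them the SECIS-binding protein gene SECISBP2 and the elongation factor gene EEFSEC, 0 passed and 0 had non-overlapping groups, where 0.0191% of all genes passed, 4.07% were higher without overlap and 4.47% lower. At such shares 16 genes are too few for 0 calls or 0 non-overlapping groups to set them apart. Their median was -0.043, with values of -0.26 to 0.22. TRNAU1AP, which binds the selenocysteine tRNA, was at 0.22 ± 0.21 and SEPSECS, the synthase that completes selenocysteine on the tRNA, at -0.26 ± 0.26. For all 16 the 95% interval lay inside -1 to 1. The 19 tested homologues that use cysteine in place of selenocysteine, or related thiol enzymes, had a median of -0.0038. PRDX4 and PRDX6, both peroxiredoxins, were at 0.16 ± 0.11 and 0.088 ± 0.088. Of 14 tested genes of selenium uptake and metabolism, 1 passed, which was again TXNRD1. Of 38 tested tRNA modification enzymes 0 passed, and WDR6, the partner of FTSJ1, was at 0.22 ± 0.12. FTSJ1 itself was measured in control cells at 57.2, 72.2 and 53.6 CPM with selenite and 54.7, 51.6 and 45.4 CPM without.

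Among antioxidant and stress programmes TXNRD1 was the single call, where 0.0191% of all genes rose and 0% fell. Of 29 tested NRF2 targets, genes of the antioxidant response, 1 rose and 0 fell, with a median of -0.048. TXNRD1 is a member of both this list and the selenoproteins. Of 19 ferroptosis regulators 0 passed, with a median of 0.013. GCH1, which makes the antioxidant tetrahydrobiopterin, was at 1.32 ± 0.51 on 1.42 to 7.55 CPM, and CBS, an enzyme of cysteine synthesis, at -0.48 ± 0.21. Of 27 ATF4 targets 0 passed (median 0.056), with STC2 at -0.48 ± 0.27 and PCK2 at 0.44 ± 0.26, and of 23 unfolded protein response genes 0 passed (median -0.019), with SEC61B at -0.32 ± 0.23. Of 18 metallothionein and heat shock genes 0 passed (median 0.0040), with HSPD1 at 0.11 ± 0.09 and HSPB1 at -0.16 ± 0.13.

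Promoter windows at 1 start of each called gene are shown because TXNRD1 is on the NRF2 list and SELENOW is not. They are the 250 bases before the start that RefSeq gives on GRCh38.p14, on the plus strand, at chr12:104215529-104215778 and chr19:47778453-47778702, with capitals where the antioxidant response element core TGACNNNGC matches on either strand.
TXNRD1: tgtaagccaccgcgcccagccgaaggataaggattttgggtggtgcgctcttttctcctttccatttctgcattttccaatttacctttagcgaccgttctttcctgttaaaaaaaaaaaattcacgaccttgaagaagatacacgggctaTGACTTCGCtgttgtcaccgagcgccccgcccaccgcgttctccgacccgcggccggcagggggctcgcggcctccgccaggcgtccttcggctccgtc
SELENOW: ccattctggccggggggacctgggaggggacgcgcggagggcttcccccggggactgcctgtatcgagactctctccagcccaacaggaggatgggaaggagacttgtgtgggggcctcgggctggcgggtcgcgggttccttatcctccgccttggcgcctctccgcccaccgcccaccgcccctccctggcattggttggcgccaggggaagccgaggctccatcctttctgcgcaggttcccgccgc
The TXNRD1 window held 1 match, which began 99 bases before the start, and the SELENOW window held none. Of 16 tested selenoprotein genes with a promoter in the table, 3 held a match (TXNRD1, SELENON and SELENOK), as did 6 of 24 NRF2 targets and 12.2% of 8673 tested genes. Only 1 start per gene was used, and promoters at any other start were not searched. For TXNRD1 and SELENOW it was the outermost end of the gene. Which start the mRNAs behind the footprints came from was not examined, so the windows need not be the promoters in use. A match is a description of the letters and not of a bound factor.

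Genes of translation, energy metabolism and growth gave no calls, where 0.0191% of all genes were called. Lists of this size are too small for 0 calls to set them apart. The 75 tested cytosolic ribosomal protein genes had a median of 0.0046, with RPL12 at 0.40 ± 0.15 and RPL22 at 0.32 ± 0.15. The 77 mitochondrial ribosomal protein genes had a median of 0.0013, with MRPS11 at -0.37 ± 0.16 and MRPL3 at 0.28 ± 0.15. The 40 translation factors (median 0.0071), 23 aminoacyl-tRNA synthetases (0.025) and 31 proteasome subunits (-0.058) also had 0 calls. Of 74 nuclear genes of oxidative phosphorylation 0 passed (median 0.027), with COX6B1 at 0.23 ± 0.11, and of 31 genes of glycolysis and hypoxia 0 passed (median -0.027), with HK1 at 0.21 ± 0.11 and ENO2 at -0.23 ± 0.14. The 9 genes of the pentose phosphate pathway, which supplies NADPH to thioredoxin reductase, had a median of -0.045, with TKT at -0.16 ± 0.09, and the 23 cholesterol synthesis genes a median of -0.044, with LSS at -0.18 ± 0.15.

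Cell cycle and signalling genes also gave no calls, again beside 0.0191% of all genes. The 41 genes of S phase had a median of 0.045, with TK1 at -0.27 ± 0.12 and MCM2 at -0.23 ± 0.12, and the 42 genes of mitosis a median of 0.043, with MKI67 at 0.30 ± 0.15. The 62 replication-dependent histone genes, many of which are near-identical copies, had a median of 0.0019. Of 24 genes of MAPK output 0 passed (median -0.071), with FOS at 0.72 ± 0.39 and DUSP4 at -0.23 ± 0.13. Of 23 p53 targets 0 passed (median -0.021), with PLK3 at -0.88 ± 0.38, and of 38 interferon response genes 0 passed (median -0.014), with IFI35 at 0.49 ± 0.20 and PSMB9 at -0.48 ± 0.21. Of 25 extracellular matrix genes 0 passed (median -0.062), with TGFBI at -0.26 ± 0.09 and COL6A1 at -0.27 ± 0.11. The 11 melanocyte lineage genes had a median of 0.13, with GPNMB at 0.15 ± 0.13, and the 5 tested markers of other cell types a median of -0.094, with LYZ at -0.27 ± 0.27.

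The knockout line was given the same dose, in 6 libraries that share none with the control comparison. In knockout cells 9 of the 18 selenoprotein genes rose with selenite and 1, SELENOI, fell (edgeR adjusted p under 0.05), but there 10.2% of all genes rose and 10.3% fell. Knockout libraries 2 and 3 with selenite held 636920 and 520989 counts, the lowest of the 12. Without both, 4 of the 18 rose, against 0.153% of all genes, and 0 fell, with SELENOI at -0.15 (adjusted p = 0.63). TXNRD1 passed in both genotypes, at 0.73 ± 0.11 in control cells and 0.42 ± 0.11 in knockout cells (adjusted p = 0.0076). SELENOW had 7.90, 6.56 and 11.98 CPM in knockout cells with selenite, against 2.66, 3.60 and 3.68 CPM without, at 1.34 ± 0.51 (adjusted p = 0.055). GPX1 had 159, 289 and 333 CPM in knockout cells with selenite, against 40.5, 52.3 and 55.9 CPM without, and no library of one group reached into the other.

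**Figure D5:**
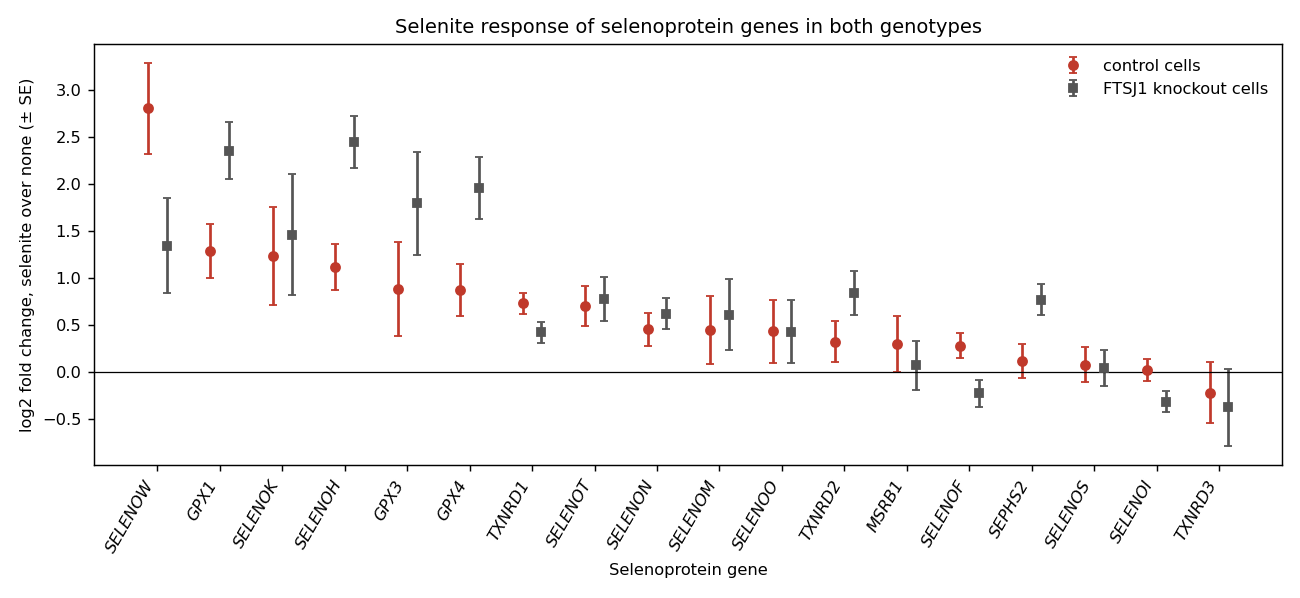
Log2 fold change ± SE of selenite over none for each tested selenoprotein gene in control cells (circles) and FTSJ1 knockout cells (squares), from the fit of all 12 libraries. TXNRD1 and SELENOW have the higher value in control cells, and GPX1, SELENOH and GPX4 in knockout cells, of which SELENOH alone passed the test of the difference.

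The test of the difference itself, the interaction of genotype and selenite, passed for 1 selenoprotein gene with all 12 libraries. The response of SELENOH was 1.11 ± 0.25 in control cells and 2.45 ± 0.28 in knockout cells, a difference (knockout minus control) of 1.33 with a 95% interval of 0.52 to 2.14 (edgeR adjusted p = 0.047), where 7.45% of all genes passed. Without both shallow knockout libraries the difference was 1.05 (adjusted p = 0.26), and 0.172% of all genes passed. The call of SELENOH was lost in 6 of 18 other settings: that one, with the gene density trend removed, without selenite replicate 2 of the control cells, and without replicate 1, 2 or 3 of the control cells given none. For TXNRD1 the difference was -0.31 (interval -0.62 to 0.0035, adjusted p = 0.21) and for SELENOW -1.46 (interval -2.96 to 0.035, adjusted p = 0.21). For GPX1 and GPX4 it was 1.07 (adjusted p = 0.16) and 1.08 (adjusted p = 0.14). Without both shallow knockout libraries the differences were -0.11 for TXNRD1, -1.56 for SELENOW, 0.40 for GPX1 and 0.62 for GPX4. Responses of control and knockout cells were therefore not shown to differ for these 4 genes, and the intervals do not show that they were alike.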

How the data were processed

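Per the labels, cells were snap-frozen, lysed with cycloheximide and tigecycline and digested with RNase I, and fragments of 17 to 40 nt were sequenced after depletion of ribosomal RNA. The submitters' processing notes list Trim Galore 0.6.10, STAR 2.7.9a, DESeq2 and GRCh38 with no role or order. The counting tool, the annotation and the use of the molecular identifiers are not given in the sources used here. The authors deposited raw footprint counts per gene, which were analysed, and normalized signal per gene, found equal to the counts times 1 factor per library and not used further.

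Raw counts of all 12 libraries were fitted in R 4.3.3 with edgeR 4.0.16 (limma 3.58.1, DESeq2 1.42.0 for alternatives): filterByExpr (minimum count 10, total 15), TMM scaling and robust quasi-likelihood, with 1 coefficient per group and Benjamini-Hochberg adjustment over 10467 genes. CPM values use TMM-scaled library sizes, except summed marker levels, which use totals. Standard errors derive from the F statistic and are approximate. P-values reflect the spread of these samples alone, which may be technical, and the bounds on the SELENOW count ratio and the limit of 3 counts cover counting error only. Positions came from a GRCh38.p14 table matching 12978 symbols and 65 synonyms, with 31 unmatched.

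Members and the 30 gene lists were chosen with earlier results of these data known. Genes were named by rule: all tested selenoproteins, up to 15 largest calls per direction without overlap and averaging 10 CPM or more (the 5 smallest p where fewer than 5 qualified), and per list up to 4 calls or the 2 smallest p. Not every list member so named is printed.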

Additional observations from a re-analysis of the deposited data

Results flagged for a closer look

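In selenite response, 16 of 74 named genes differed between genotypes by the interaction test (edgeR adjusted p 5.0e-04 to 0.047). Over all genes 7.45% did. Differences are given as knockout minus control on the log2 scale. These genes were named largely for a small p in control cells, whose response is part of the difference. The count is therefore a description. Without both shallow knockout libraries the difference of DNAAF5 (1.36 with all libraries, 1.08 without) and of COL6A1 (0.93 and 0.80) kept an adjusted p of 0.048, and the other 14 had 0.094 to 0.41. The differences of these 14 kept their sign there, at -1.22 for FNBP1L and 0.29 (H2AC6) to 1.43 (AGPAT2) for the rest. The differences with all libraries were 1.88 for AGPAT2, 1.15 for DVL1, 1.00 for ENO2, 0.88 for MRPS11, 0.70 for HSPB1, 0.68 for both TKT and DUSP4, 0.66 for MCM2, 0.61 for TK1, 0.53 for H2AC6, 0.46 for NDUFA13, 0.44 for TGFBI and -1.39 for FNBP1L. SELENOH, at 1.33, was the one selenoprotein gene among them. None of the 16 passed for selenite in control cells with all libraries.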

How the results depend on the processing

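TXNRD1 passed under all 19 other settings. Genes higher with selenite in control cells numbered 2 as reported, 4 with the 6 control libraries alone, and 1 with a mean of at least 30 counts, with control libraries thinned to the smallest total or by limma-voom. Every gene called higher under these settings was a selenoprotein, so the selenoprotein counts were the same. With the replicate block within genotype 6 genes were higher, 5 of them selenoproteins (TXNRD1, SELENOW, GPX1 at adjusted p = 2.1e-07, SELENOH at 6.0e-06 and GPX4 at 0.017), and 5 lower, with DNAAF5 at 0.015. LALBA, also called with the block, had 4.1, 88.1 and 2.3 CPM with selenite, against 0.67, 5.8 and 0 CPM without. It is 1 of the 16 genes whose highest library held at least 5 times the next, so the block also called a gene of that kind. The block called SELENOF, GPX1, SELENOH, SEPHS2 and GPX4 for the difference between genotypes. Deviations of same-numbered control libraries correlated at 0.11, 0.060 and 0.28, and not every library correlated best with its own number, so the numbers were not taken as a pairing. Leaving out 1 control library gave 1 to 3 higher, 0 to 1 lower (DNAAF5) and 1 to 3 selenoproteins. Genes differing between genotypes numbered 780 as reported, 18 without both shallow knockout libraries, 367 with dispersion not robust, 1471 with the replicate block, 365 with the gene density trend removed and 279 to 881 with 1 control library left out. The causes were not tested. With 1 control library left out the log2 fold change of SELENOI ran from -0.037 to 0.087, below 0 without selenite replicate 1 or 3 or replicate 3 of the cells given none. That of SELENOS ran from -0.19 (without selenite replicate 2) to 0.24. Neither passed in any setting. Spearman's rho between the selenite change and gene density (genes within 1 Mb) was -0.072 in control and 0.43 in knockout cells, across genes, which are not independent. Depth limits SELENOW, SELENOK, GPX3, TXNRD3, GCH1, PLK3 and FOS, each with under 10 counts in at least 1 control library.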

Other observations

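Beside GALNT13 and LOXL2, SLC39A10, a zinc transporter gene, had 114, 1695 and 90.6 CPM with selenite, against 105, 96.6 and 103 CPM without, and VWA1 reached 440 CPM in selenite replicate 2. Of 9009 genes with a mean of at least 10 CPM, 22 were more than 2-fold lower with selenite. In 20 of these the groups overlapped, and AGPAT2 and SPTBN4 were the other 2. None of the 22 passed the adjusted test. Genes were named here after their values were seen.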
